A study of Mus musculus with 4 samples.

Results

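The 44 genes described here encode the machinery of DNA replication and of entry into S phase, and they were taken by gene symbol from a fixed list of names. All 44 have a row among the 40092 genes of the deposited count table, and 43 of them carried enough reads to be tested. The libraries are RNA-seq of GFP+ AT2 cells, which make surfactant and serve as stem cells of the alveolus, sorted on day 14 after bleomycin, a drug that injures the alveolar epithelium. The 2 control libraries (Ctrl) came from Alkbh5flox/+; Sftpc-CreERT2; Rosa26-mTmG mice and the 2 knockout libraries (A5-CKO) from Alkbh5flox/flox; Sftpc-CreERT2; Rosa26-mTmG mice. Alkbh5 encodes an RNA demethylase that removes N6-methyladenosine from mRNA. The controls were littermates. Both groups carried the Cre allele and the reporter, and both received tamoxifen and bleomycin, so the control cells also lose 1 Alkbh5 allele where the recombinase acts. Sftpc-CreERT2 limits recombination to cells that expressed the AT2 gene Sftpc at the time of tamoxifen, and the reporter keeps a recombined cell and its progeny green after they leave the AT2 state, so the sort gathers a lineage rather than a fixed cell type. The ages of the animals are not given in the sources used here, and the labels do not say whether each library is 1 animal or a pool. The p-values therefore measure only the spread between these libraries.

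DNA replication is prepared in G1, when the origin recognition complex, CDC6 and CDT1 load the ring of MCM2 to MCM7 onto DNA, a step called licensing. At the start of S phase cyclin E with CDK2 and further factors turn the loaded rings into active helicases with CDC45 and GINS, and primase and DNA polymerases then copy the strands behind them on the sliding clamp PCNA. Many of these genes are transcribed in late G1 and S phase under E2F transcription factors, and their RNA is used to read proliferation in tissues such as the injured alveolus, where AT2 cells divide before some of them become AT1 cells.

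Of the genes with a promoter window, 36.8% held a promoter sequence feature that their choice by name did not use. RefSeq promoter windows on GRCm38.p6, from 250 bases before to 50 after the annotated start, were found for 38 of the 44 genes. They were searched on both strands for the E2F words TTTCCCGC, TTTCGCGC, TTTGCCGC and TTTGGCGC, and a word was present in 14 of the 38 genes. The same words were present in 4.08% of 12798 tested genes with a promoter and in 2.61% of all 27025 genes with one. In 1 case a word overlapped a CCAAT word, the letters of another common promoter element. Windows of 4 genes that lie before the start site and outside any RefSeq gene are shown, with the E2F words in capitals. They belong to a helicase subunit pair, a GINS subunit and a clamp loader subunit. The Gins3 word is not among the words in capitals of the other windows shown.
Mcm5, chr8:75109332-75109391, plus strand: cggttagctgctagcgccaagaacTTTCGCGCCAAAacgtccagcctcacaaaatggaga
Mcm6, chr1:128359780-128359839, minus strand: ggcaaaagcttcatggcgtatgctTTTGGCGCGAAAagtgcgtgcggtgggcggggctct
Gins3, chr8:95633492-95633551, plus strand: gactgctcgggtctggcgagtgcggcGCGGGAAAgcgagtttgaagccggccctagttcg
Rfc3, chr5:151651209-151651244, minus strand: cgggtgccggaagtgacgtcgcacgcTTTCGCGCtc
In Mcm5 and Mcm6 the capitals hold 2 overlapping words, 1 on each strand, and Mcm6 had a further word 47 bases before the start. Words before the start were also found in Orc1, Mcm7, Cdc6, Uhrf1 and Pola1, at 27, 165, 138, 185 and 138 bases. In Mcm3, Lig1, Pold1, Cdt1 and Pole2 the words lay within the 50 bases after the start. A match is a run of letters and was not tested as a binding site.

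The total count was between 18144865 and 20811757 per library, and a gene at the floor of 3 counts had from 0.128 to 0.177 normalized counts (CPM, the count divided by the library size in units of 1e6 counts, scaled by edgeR's TMM factors). Floors cover counting error only. The libraries differed by genotype in other ways. More genes held a count in A5-CKO 1 (23374) and A5-CKO 2 (23884) than in Ctrl 1 (20806) or Ctrl 2 (19931). TMM factors were 0.933 for Ctrl 1, 0.860 for Ctrl 2, 1.107 for A5-CKO 1 and 1.126 for A5-CKO 2. The bearing of these differences on scarce genes was not tested. Alkbh5 had 81.7 and 152 CPM in Ctrl 1 and Ctrl 2, and 19.3 and 36.6 CPM in A5-CKO 1 and A5-CKO 2, below both controls. Its log2 fold change was -2.06 (standard error 0.46), with an adjusted p of 0.528 by the quasi-likelihood test of edgeR and 0.0214 by DESeq2. The AT2 label was met by its markers, all 10 of which were detected, with a summed level of 56704 and 82175 CPM in Ctrl and 42221 and 34897 CPM in A5-CKO. Genotypes were compared by the quasi-likelihood test of edgeR over 16661 genes with Benjamini-Hochberg adjustment. With 2 libraries against 2, an exact two-sided permutation test of a single value cannot go below 0.333.

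Apart from Cdc45, every replication gene was read in all 4 libraries, and their levels spanned 152-fold. Per kilobase of transcript, which allows genes to be set side by side, Pcna was the highest of the 43, at a mean level of 57.6 CPM per kb over the 4 libraries, and Orc1 the lowest at 0.380. Genes of the elongating fork that also serve DNA repair came next, with Pold2, a subunit of DNA polymerase delta, at 18.5 CPM per kb, Rpa3, a subunit of the single-strand binding complex, at 17.3, and Fen1, the flap nuclease, at 16.98. The 6 subunits of the MCM ring, which assemble in equal numbers, lay within 1.97-fold of each other, from 6.57 CPM per kb for Mcm4 to 13.0 for Mcm7. The 5 subunits of the clamp loader lay within 1.74-fold, and the 3 RPA subunits within 1.71-fold. These ranges depend on the length taken for each gene, that of its longest protein-coding transcript, which need not be the one expressed. After Orc1 the scarcest were Mcm10 at 0.687 CPM per kb, the polymerase gene Pole at 0.700, Gins3 at 0.765 and Cdc6 at 0.856.

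**Figure D1:**
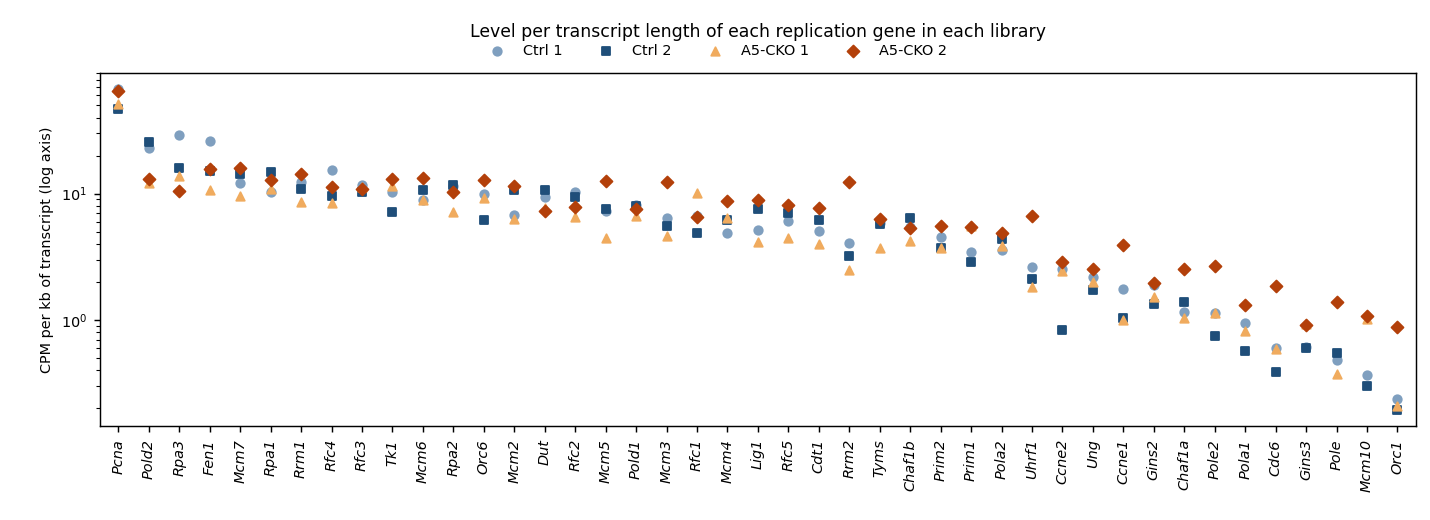
Level of the 43 tested genes in each of the 4 libraries, in CPM per kb of the longest protein-coding transcript on a log axis, ordered by their mean. Pcna stands above the rest at a mean of 57.6 CPM per kb and Orc1 is last at 0.380, and for scarce genes such as Orc1 and Cdc6 the A5-CKO 2 symbol stands above the other 3.

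Cdc45, the helicase cofactor, was listed at 0 counts in all 4 libraries. This is not read as absence of its RNA. Its neighbours on chromosome 16, where Cdc45 spans 18780447 to 18811972 (GRCm38.p6), were low too, with 0 counts in every library for Cldn5 and 0, 0, 0 and 2 counts for Ufd1, a gene most cells use. Mrpl40, a mitochondrial ribosomal protein gene, had only 13 and 7 counts in the controls and 6 and 20 in A5-CKO, and Septin5 had 6, 1, 2 and 10 counts over the 4 libraries. Hira, a histone chaperone gene, had 4 and 5 counts in the controls and 8 in A5-CKO 2, but 62 in A5-CKO 1. No row of the 44 genes lies on a genome patch.

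Between genotypes, 1 replication gene (Mcm10) was higher and 1 (Pold2) lower at an unadjusted p under 0.05, and the rest did not pass. None of the 43 passed an adjusted p of 0.05 by the quasi-likelihood test of edgeR, where 0% of the 16661 genes tested passed. DESeq2 on the same genes called none of the 43 either, where it called 0.384% of all, and limma voom called none. At the unadjusted threshold the 1 higher gene of 43 stood against 4.48% of all genes tested by edgeR, and the 1 lower gene against 4.71%. DESeq2 also gave 1 higher and 1 lower, where 5.77% and 4.89% of all genes were. With total counts only, in place of TMM factors, 1 was higher, where 10.2% of all genes were. With a correction for GC content and transcript length 2 were higher, Mcm10 and Tk1, where 2.78% of all genes were. That correction left Rpa3, not Pold2, as the 1 lower gene, and the share of all genes lower under it is not given. With a library left out, its genotype is a single library, and the log2 fold changes of those fits are described further on.

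The median log2 fold change of the 43 was 0.17, beside -0.02 for all genes tested, and 29 were above 0, where 49.1% of all genes were. With total counts only the median was 0.48, and that of all genes moved to 0.30. In 5 of the 43 both A5-CKO libraries exceeded both controls (Mcm4, Mcm10, Gins3, Prim1 and Tk1), where 20.3% of all genes did. In 7 both were below both controls (Pold1, Pold2, Rfc2, Rpa2, Rpa3, Dut and Chaf1b), where 23.5% of all genes were. For the other 31 the genotypes overlapped. With total counts only the 5 and 7 became 16 and 2, beside 34.8% and 10.1% of all genes.

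**Figure D2:**
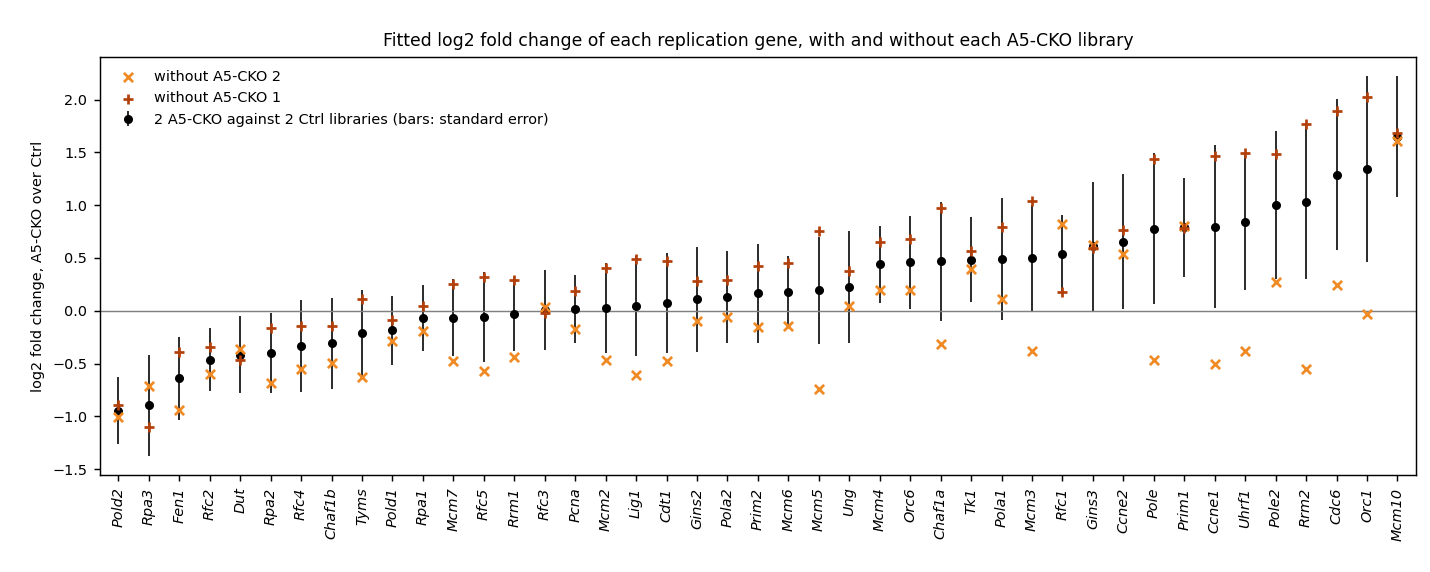
Fitted log2 fold change (A5-CKO over Ctrl) of the 43 tested genes, ordered by size. Points with bars are the fit to all 4 libraries with its standard error, and the symbols are the fits without A5-CKO 2 (crosses) and without A5-CKO 1 (plus signs). Mcm10 at 1.65 and Pold2 at -0.95 keep their sign without either library, whereas Orc1, at 1.34, is at -0.03 without A5-CKO 2.

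The 2 genes that passed the unadjusted threshold moved in opposite directions, and each was close between libraries of a genotype. Mcm10 (chromosome 2) encodes a factor needed to start the loaded helicase. It had 1.77 and 1.45 CPM in the controls (30 and 25 counts) and 4.93 and 5.21 CPM in A5-CKO (109 and 122 counts). The group mean was 1.61 ± 0.226 CPM (SD, n = 2) in Ctrl and 5.07 ± 0.198 CPM (SD, n = 2) in A5-CKO. Both A5-CKO libraries were thus above both controls, with a log2 fold change of 1.65 (standard error 0.57). Its unadjusted p was 0.0237 and its adjusted p 0.528 in edgeR's quasi-likelihood test, and over the other settings the adjusted p ran from 0.254 to 0.995. Leaving out each library in turn gave log2 fold changes from 1.49 to 1.88.

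Pold2 (chromosome 11) encodes the second subunit of DNA polymerase delta, which copies the lagging strand and fills repair gaps. It had 38.1 and 42.0 CPM in the controls and 19.9 and 21.6 CPM in A5-CKO 1 and A5-CKO 2. The group mean was 40.1 ± 2.73 CPM (SD, n = 2) in Ctrl and 20.8 ± 1.18 CPM (SD, n = 2) in A5-CKO, with both A5-CKO libraries below both controls. The log2 fold change was -0.95 (standard error 0.32, unadjusted p = 0.0207 and adjusted p = 0.528 in edgeR's quasi-likelihood test). With a correction for GC content and transcript length the log2 fold change was -0.52 and the unadjusted p from edgeR was 0.105. Total counts only gave -0.63 and an unadjusted p of 0.0886 from edgeR. Pold2 overlaps Aebp1, and since how strand entered the counting is not given, reads of the pair may be shared between them.

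Among the 10 licensing genes, A5-CKO 2 was the highest library for every gene, and A5-CKO 1 was below both controls for 6. Both held for 5 of the 6 subunits of the MCM ring. Under total counts only, A5-CKO 2 was still the highest for all 10, but A5-CKO 1 was below both controls for 3 of the 10 and for 2 MCM subunits, Mcm5 and Mcm7. Mcm5 had 24.6 and 25.7 CPM in Ctrl 1 and Ctrl 2, 15.1 CPM in A5-CKO 1 and 42.4 CPM in A5-CKO 2. Mcm3 had 19.5 and 16.8 CPM in Ctrl, 13.9 CPM in A5-CKO 1 and 37.2 CPM in A5-CKO 2. The controls of these subunits lay between the A5-CKO libraries. Mcm2 had 23.0 and 36.0 CPM in Ctrl, 21.3 CPM in A5-CKO 1 and 38.9 CPM in A5-CKO 2. Mcm6 had 39.0 and 46.5 CPM in Ctrl, 38.6 CPM in A5-CKO 1 and 58.3 CPM in A5-CKO 2. Mcm7 had 36.0 and 42.5 CPM in Ctrl, 28.2 CPM in A5-CKO 1 and 46.9 CPM in A5-CKO 2. In these 3 the A5-CKO libraries also lay on either side of both controls. Mcm4 was the exception, with 17.7 and 22.3 CPM in Ctrl and 22.9 and 31.5 CPM in A5-CKO 1 and A5-CKO 2, so that both A5-CKO libraries were above both controls, by a small margin for A5-CKO 1. The log2 fold changes of the 6 subunits ran from -0.06 for Mcm7 to 0.50 for Mcm3, none larger than its standard error except Mcm4 (0.44, standard error 0.36). The sign of Mcm7 turned under upper-quartile factors, total counts only and the correction for GC and length.

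Orc1 and Cdc6 had the widest gaps between the A5-CKO libraries among the licensing genes. Orc1, the subunit of the origin recognition complex that cycles, had 0.710 and 0.582 CPM in Ctrl 1 and Ctrl 2, 0.634 CPM in A5-CKO 1 and 2.65 CPM in A5-CKO 2, from 12, 10, 14 and 62 counts. Cdc6, the loader of the MCM ring, had 2.78 and 1.804 CPM in Ctrl, 2.72 CPM in A5-CKO 1 and 8.51 CPM in A5-CKO 2. For both genes 3 libraries were close and A5-CKO 2 stood above them. Cdt1, its partner in loading, had 10.998 and 13.5 CPM in Ctrl, 8.78 CPM in A5-CKO 1 and 16.97 CPM in A5-CKO 2, and Orc6, a further origin subunit, had 14.5, 9.13, 13.5 and 18.9 CPM in the same order.

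Of the firing factors with reads, neither GINS subunit passed the test. Gins3 had 1.54 and 1.51 CPM in Ctrl and 2.35 and 2.31 CPM in A5-CKO 1 and A5-CKO 2, so that both A5-CKO libraries were above both controls. Its log2 fold change was 0.61 with a standard error of 0.61, from 26, 26, 52 and 54 counts. Gins2 had 7.39 and 5.18 CPM in Ctrl and 5.89 and 7.65 CPM in A5-CKO, and the genotypes overlapped.

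The 8 polymerase and primase genes fell into different patterns. Pole, the catalytic subunit of the leading-strand polymerase epsilon, had 3.43 and 3.96 CPM in Ctrl, 2.67 CPM in A5-CKO 1 and 10.002 CPM in A5-CKO 2. Pole2, its partner, had 1.95 and 1.28 CPM in Ctrl, 1.95 CPM in A5-CKO 1 and 4.53 CPM in A5-CKO 2. In both, as in Orc1 and Cdc6, A5-CKO 2 alone was high. Prim1, the catalytic subunit of primase, was instead similar within each genotype, with 5.50 and 4.596 CPM in Ctrl and 8.78 and 8.68 CPM in A5-CKO, and it differed by 0.79 on the log2 scale (standard error 0.47, edgeR adjusted p = 0.578). Prim2, Pola1 and Pola2, the rest of the primase and polymerase alpha complex, overlapped between genotypes, with log2 fold changes of 0.17, 0.49 and 0.13. Pold1, the catalytic partner of Pold2, had 28.3 and 27.6 CPM in Ctrl and 22.9 and 26.3 CPM in A5-CKO. Its log2 fold change was -0.18 (standard error 0.33), and its sign turned under total counts and under the GC and length correction.

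Among the clamp, its loader and RPA, 9 genes in all, A5-CKO 2 was the highest library for Rfc5 alone. Pcna, the sliding clamp and the gene of this group with the most reads, had 102 and 71.3 CPM in Ctrl and 77.1 and 98.8 CPM in A5-CKO 1 and A5-CKO 2, so that the genotypes covered the same range. Its log2 fold change was 0.02 (standard error 0.32). Of the loader subunits, Rfc1, the large one, was highest in A5-CKO 1 with 48.3 CPM against 31.4 and 23.3 in the controls and 31.0 in A5-CKO 2, and Rfc2, Rfc3 and Rfc4 were highest in Ctrl 1. Rpa1, Rpa2 and Rpa3 had log2 fold changes of -0.07, -0.40 and -0.90. Rpa3 had 19.4 and 10.8 CPM in Ctrl and 9.19 and 7.01 CPM in A5-CKO, and both A5-CKO libraries were below both controls. Fen1 had 62.3 and 35.8 CPM in Ctrl and 25.5 and 37.5 CPM in A5-CKO, with overlap, and Lig1, the ligase that joins the fragments, had 16.4 and 24.03 CPM in Ctrl, 13.3 CPM in A5-CKO 1 and 28.4 CPM in A5-CKO 2.

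A5-CKO 2 was the highest library for 5 of the 6 genes of nucleotide supply, 2 of the 3 of chromatin and both cyclin E genes. Rrm2, the regulated subunit of ribonucleotide reductase that makes deoxynucleotides in S phase, had 8.99 and 7.04 CPM in Ctrl, 5.48 CPM in A5-CKO 1 and 27.3 CPM in A5-CKO 2. That is 4.98-fold between the A5-CKO libraries, and it is the widest ratio between libraries of a genotype among the 43. Rrm1, the other subunit, had 49.2 and 43.3 CPM in Ctrl, 34.05 CPM in A5-CKO 1 and 56.8 CPM in A5-CKO 2. Both subunits had the controls between the A5-CKO libraries. Tyms, thymidylate synthase, had 18.4 and 18.2 CPM in Ctrl, 11.8 CPM in A5-CKO 1 and 19.8 CPM in A5-CKO 2. Tk1, thymidine kinase, was above both controls in both A5-CKO libraries, with 15.0 and 10.2 CPM in Ctrl and 16.6 and 18.7 CPM in A5-CKO, while Dut, which clears dUTP, was below both, with 18.2 and 20.8 CPM in Ctrl and 15.1 and 14.1 CPM in A5-CKO. Neither separation passed the test, with log2 fold changes of 0.48 (standard error 0.40) and -0.42 (standard error 0.36). With the GC and length correction that of Tk1 was 0.89, at an unadjusted edgeR p of 0.0383. Ung, the uracil glycosylase, had 4.67, 3.67, 4.30 and 5.43 CPM in the order Ctrl 1, Ctrl 2, A5-CKO 1, A5-CKO 2.

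Uhrf1, which carries DNA methylation across replication, had 9.40 and 7.56 CPM in Ctrl, 6.52 CPM in A5-CKO 1 and 23.9 CPM in A5-CKO 2. Chaf1a, the large subunit of the chromatin assembly factor, had 6.45 and 7.74 CPM in Ctrl, 5.70 CPM in A5-CKO 1 and 13.9 CPM in A5-CKO 2. In both, A5-CKO 1 was the lowest library and A5-CKO 2 the highest. Chaf1b, its partner, was lower in both A5-CKO libraries, with 10.4 and 12.4 CPM in Ctrl and 8.10 and 10.3 CPM in A5-CKO, and the margin was small for A5-CKO 2. Ccne1, cyclin E1, had 3.55 and 2.09 CPM in Ctrl, 1.99 CPM in A5-CKO 1 and 7.82 CPM in A5-CKO 2. Ccne2, cyclin E2, was low in Ctrl 2 instead, with 7.69, 2.50, 7.38 and 8.68 CPM in the order Ctrl 1, Ctrl 2, A5-CKO 1, A5-CKO 2, and it was the only 1 of the 43 whose control libraries were at least 2-fold apart, where 22.7% of all genes tested were.

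**Figure D3:**
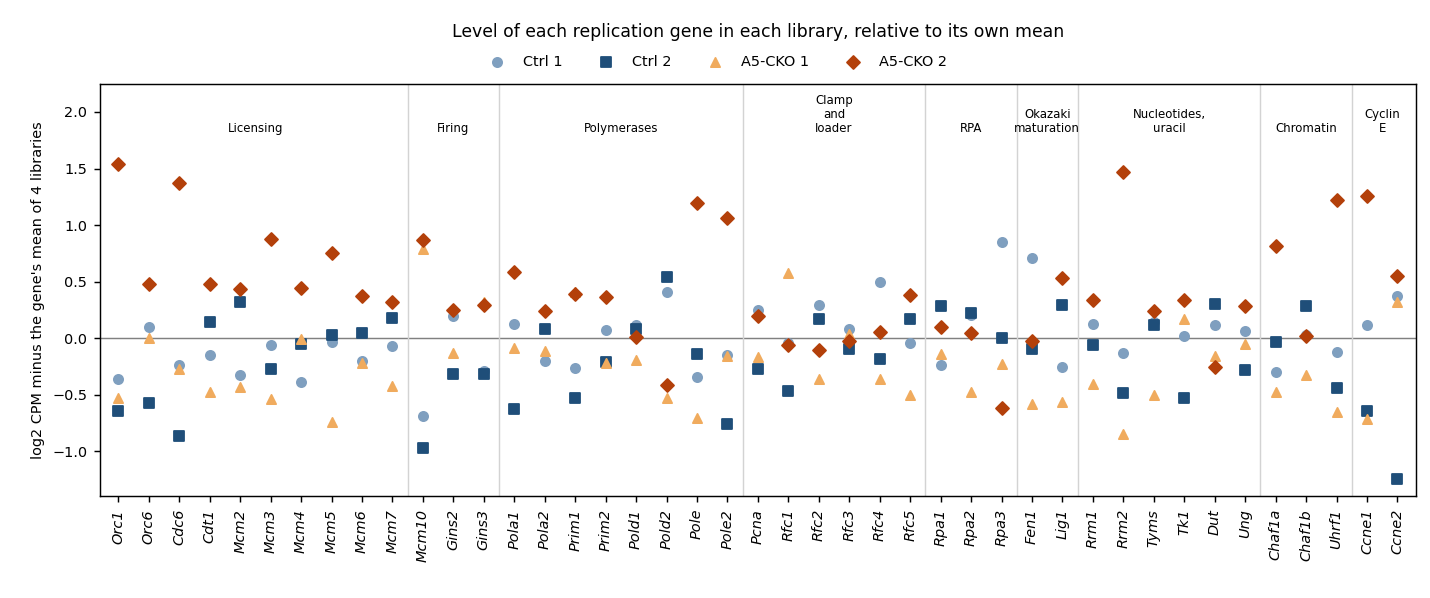
Level of each of the 43 tested genes in each library, as log2 CPM minus the gene's own mean over the 4 libraries, grouped by role. A5-CKO 2 (diamonds) is on top for 28 genes, among them all 10 licensing genes, and A5-CKO 1 (triangles) is below both controls for 25.

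Across the 43 genes, the median log2 ratio between the 2 A5-CKO libraries was 0.52, and the median log2 fold change between the genotypes was 0.17. These are unlike measures, since the first compares single libraries and the second averages the 2 libraries of each genotype. The second was also higher with total counts only, as given above. A5-CKO 2 was the highest of the 4 libraries for 28 of 43, where 20.2% of all genes tested were, and above A5-CKO 1 for 37, where 46.6% of all were. It was at least 2-fold over A5-CKO 1 for 11, where 10.7% of all were, and the reverse held for none of the 43, where it held for 11.4% of all. A5-CKO 1 was below both Ctrl libraries for 25 of 43, where 36.5% of all genes were, and above both for 6, where 35.0% of all were. With total counts only, A5-CKO 2 was highest for 34 of 43 (30% of all genes) and A5-CKO 1 was below both controls for 13 (21.9% of all), so the count for A5-CKO 1 depended on the scaling. The median log2 ratio between the A5-CKO libraries was -0.05 for all genes tested, and that of Ctrl 2 over Ctrl 1 for the 43 was -0.18. The 14 genes with an E2F word had a median log2 ratio of 1.02 between the A5-CKO libraries, and the 23 with a promoter window and no word 0.36, given as a description. The ranges overlapped, from -0.06 to 2.06 with a word and from -0.64 to 2.32 without one.

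Without A5-CKO 2 the direction of the group turned. The median log2 fold change of the 43 was then -0.31, with 13 above 0 and 30 below, beside a median of -0.08 for all genes. Without A5-CKO 1 it was 0.43, with 33 above 0, beside -0.08 for all genes. These fits hold a single A5-CKO library, which is assumed to vary as the 2 controls do, so their p-values carry no measured spread of A5-CKO. They were run with TMM factors only. With total counts only, A5-CKO 1 was below both controls for 13 of the 43, not for 25. Whether the turn holds under that scaling was not tested. By edgeR at an unadjusted p under 0.05, none was called without A5-CKO 2. Without A5-CKO 1, 5 were higher (Orc1, Cdc6, Mcm10, Rrm2 and Uhrf1), where 2.75% of all genes were, and none lower. Among single genes, the log2 fold change of Rrm2 was 1.03 with all libraries, -0.55 without A5-CKO 2 and 1.77 without A5-CKO 1. That of Uhrf1 was 0.84, -0.38 and 1.49 in the same order, and that of Ccne1 was 0.80, -0.50 and 1.47. Higher RNA of these genes from more cells in S phase and from more RNA per cell cannot be told apart in bulk libraries.

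Markers of other cells also differed between the A5-CKO libraries. The 10 fibroblast markers, all detected, summed to 478 and 210 CPM in Ctrl 1 and Ctrl 2, 122 CPM in A5-CKO 1 and 1129 CPM in A5-CKO 2, and 8 of the 10 were highest in A5-CKO 2. The 12 macrophage markers were all detected, and without Lyz2, which AT2 cells also express, the other 11 summed to 908.5 and 193 CPM in Ctrl and 182 and 1074 CPM in A5-CKO, with 7 highest in A5-CKO 2. The 7 neutrophil markers summed to 363 and 638 CPM in Ctrl and 279 and 756 CPM in A5-CKO, with 6 highest in A5-CKO 2. The 10 markers of T and NK cells, all detected, were instead lowest in A5-CKO 2, at 49.0 and 45.0 CPM in Ctrl and 51.2 and 21.2 CPM in A5-CKO. The 6 markers of leukocytes in general summed to 515 and 191 CPM in Ctrl and 229 and 486 CPM in A5-CKO. The 8 endothelial markers summed to 158 and 247 CPM in Ctrl and 108.1 and 235 CPM in A5-CKO, with Cldn5 at 0. Markers of B and plasma cells summed to 4150 and 2876 CPM in Ctrl and 1658 and 3713 CPM in A5-CKO. Markers of the transitional state between AT2 and AT1 cells summed to 3294 and 1385 CPM in Ctrl and 2126 and 3528 CPM in A5-CKO, with 5 of 8 highest in A5-CKO 2. Airway markers were lowest in A5-CKO 2, at 1461 CPM for club cells against 2022 to 2953 in the other libraries, and at 56.5 CPM for ciliated cells against 147 to 171. The summed level of the 10 AT1 markers differed less, at 2154 to 2336 CPM over the 4 libraries. The 8 of them that were tested had a median log2 fold change of 0.60 between genotypes, and 0 passed an unadjusted p under 0.05 by edgeR. For the 10 AT2 markers the median was -0.86. Of these, 2 were lower at that threshold, where 4.71% of all genes were. So were 3 of the 6 ciliated, 1 of the 5 club, 2 of the 10 B and plasma and 1 of the 10 fibroblast markers. Higher was 1 of the 6 markers of leukocytes in general, where 4.48% of all genes were. The part of these cells in the levels of the replication genes was not tested. The summed level of the 43 replication genes was 860 CPM in Ctrl 1, 813 CPM in Ctrl 2, 686 CPM in A5-CKO 1 and 1003 CPM in A5-CKO 2.

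Other genes of replication were read from a further list of 47, of which 46 were tested and Pold4 had too few reads. Their median log2 fold change was 0.40, with 32 above 0 and 14 below, and without A5-CKO 2 it was 0.31. For 20 of the 46, or 43.5%, both A5-CKO libraries were above both controls, where 20.3% of all genes tested were. By edgeR 4 were higher and 2 lower at an unadjusted p under 0.05, where 4.48% and 4.71% of all genes were, and 0 passed after adjustment. The 4 higher ones were Topbp1, a firing and checkpoint scaffold, at a log2 fold change of 0.96, Ticrr, its partner in firing, at 2.04, Atad5, which unloads PCNA, at 2.04, and Hells, a chromatin remodeler, at 1.60. Topbp1 had 16.1 and 17.2 CPM in Ctrl and 26.5 and 38.3 CPM in A5-CKO, and Atad5 had 1.30 and 1.16 CPM in Ctrl and 3.85 and 6.33 CPM in A5-CKO. All 4 were above both controls in both A5-CKO libraries. The 2 lower ones were Chtf8, of an alternative clamp loader, at -1.16, and Rnaseh2c, a subunit of the nuclease that removes ribonucleotides, at -0.91.

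Among 13 genes of E2F factors, their partners and RB proteins, the median log2 fold change was 0.09. E2f2, an activating E2F, was lower at an unadjusted edgeR p of 0.0178 (adjusted p = 0.528), with 86.5 and 96.3 CPM in the controls and 44.1 and 54.2 CPM in A5-CKO. E2f2 was the 1 lower gene of the 13 at an unadjusted edgeR p under 0.05, where 4.71% of all genes were lower. A5-CKO 2 was the highest library for 8 of the 13, where it was for 20.2% of all genes. Among the 8 were the activating E2f1 and E2f3 and the repressors E2f7 and E2f8. For E2f3 both A5-CKO libraries were above both controls, with a log2 fold change of 0.80 (standard error 0.54), whereas for E2f1 the genotypes overlapped. E2f7 had 0.591, 0.931 and 0.589 CPM in Ctrl 1, Ctrl 2 and A5-CKO 1 and 4.403 in A5-CKO 2, and E2f8 had 1.12, 1.28 and 1.18 CPM and then 5.98.

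The mitosis and G2/M genes, the nearest part of the cell cycle, kept a positive median without A5-CKO 2. Of 30 listed, 29 were tested, with a median log2 fold change of 0.93 and 28 above 0. Their median log2 ratio of A5-CKO 2 over A5-CKO 1 was 1.09, and A5-CKO 2 was highest for 26 of 29, where 20.2% of all genes were. Without A5-CKO 2 their median log2 fold change was 0.13, with 18 above 0, where that of the replication genes was -0.31. By edgeR 3 were higher at an unadjusted p under 0.05, Mki67, Cenpf and Kif23, and 0 lower, where 4.48% and 4.71% of all genes were, and none passed after adjustment. Mki67, the Ki-67 antigen of cycling cells, had 12.0 and 4.54 CPM in Ctrl and 23.2 and 29.4 CPM in A5-CKO, and Cenpf, a kinetochore gene, had 1.89 and 1.51 CPM in Ctrl and 5.89 and 5.39 CPM in A5-CKO. Both were above both controls in both A5-CKO libraries. With the correction for GC content and transcript length, none of the 3 passed the unadjusted threshold by edgeR. Their log2 fold changes were then 1.10 for Mki67, 1.09 for Cenpf and 1.04 for Kif23. Ctrl 2 was the lowest library for 20 of the 29, where it was for 25.9% of all genes. The difference between the mitosis and replication lists was not tested.

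**Figure D4:**
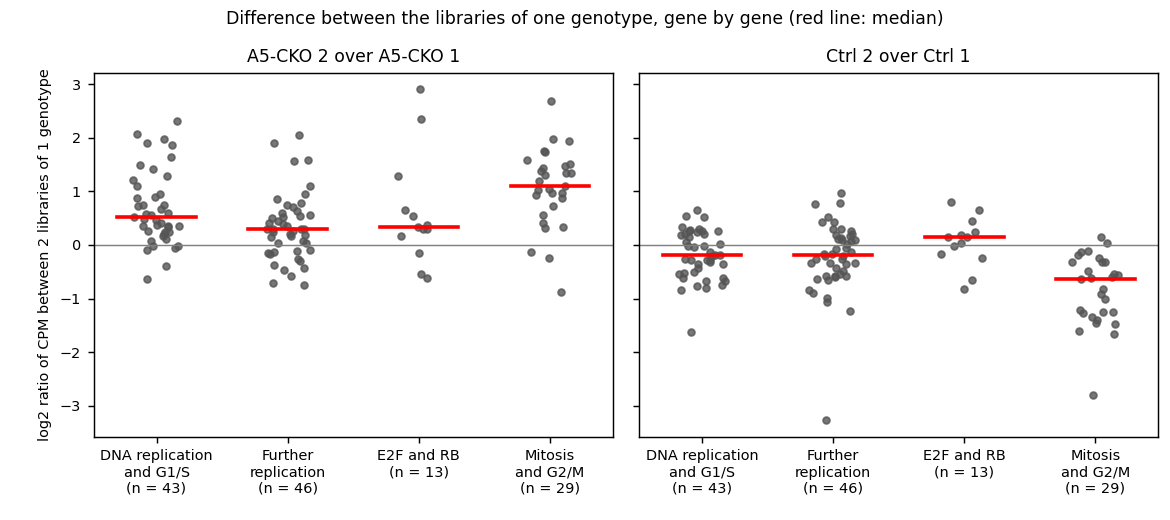
Log2 ratio of CPM between the 2 libraries of a genotype for the tested genes of 4 lists, each point 1 gene and the red line the median. Between the A5-CKO libraries the medians are 0.52 for the DNA replication and G1/S genes and 1.09 for the mitosis genes, and between the Ctrl libraries -0.18 and -0.63.

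The spans of 13 of the 44 genes overlap another tested gene, among them Mcm7 with Ap4m1, Orc1 with Prpf38a, Fen1 with Tmem258, Ung with Alkbh2 and Ccne2 with Ints8, and their counts are uncertain to that extent. Across the 43 genes, which share these libraries, the rank correlation (Spearman's rho) of log2 fold change with transcript length was 0.26.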

How the data were processed

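RNA-seq was measured in 2 Ctrl and 2 A5-CKO libraries of sorted AT2 cells. The authors deposited read counts per gene without normalization. Per the study's methods and the submitters' processing notes, reads were trimmed with Trim Galore 0.6.10, cleared of ribosomal RNA, aligned to mm10.p6 with HISAT2 2.2.1, freed of duplicates by sambamba and assigned to an NCBI annotation by featureCounts 2.0.3. The counting is described for MeRIP-seq, and the same steps were assumed for RNA-seq. The strand setting is not given in the sources used here.

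Counts were analysed with edgeR 4.0.16 in R 4.3.3 (filterByExpr, TMM factors, quasi-likelihood fit and test at their defaults, Benjamini-Hochberg adjustment over 16661 genes). Each standard error came from the log2 fold change over the root of its F statistic. The biological coefficient of variation was 41.6% (common dispersion 0.173). Samples were grouped by the genotype in their labels. Alternatives were other scaling factors, DESeq2 1.42.0, limma 3.58.1 voom, a robust fit, other filters on counts, the replicate number as a block, per-library splines on GC content and transcript length (4 degrees of freedom each, 91.5% of tested genes), and each library left out in turn. The order of the libraries under other scalings was added after seeing the data. Lengths are of the longest protein-coding GENCODE M21 transcript, and promoters are RefSeq windows on GRCm38.p6. The bases after the start matched an annotated transcript in 36 of 44 windows.

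The members and gene lists were chosen with earlier results of these data known, and no list gives independent support. Genes given with values in every library are those with an unadjusted p under 0.05, Mcm2 to Mcm7, Pcna, the highest and lowest level, and the 3 widest gaps within a genotype. Of the other lists, Mki67 and genes under that p could be named. Further genes with such values were chosen after their values were seen.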

Additional observations from a re-analysis of the deposited data

How the results depend on the processing

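No replication gene passed the adjusted threshold under any of the 16 alternatives, and Mcm10 kept its direction, as did Pold2, under all of them. Of all genes, 0 passed the adjusted threshold with edgeR, 64 with DESeq2 on the same genes and 59 with its default filtering, among them Alkbh5 (log2 fold change -2.01 and -2.02), and 0 to 1 with 1 library left out. Whether the replicate numbers pair the samples cannot be told from 2 libraries per genotype. Deviations of same-numbered libraries correlated at -0.35 over all tested genes and at 0.07 over the 43. The labels tie no number to a litter or batch. Fitted with the replicate block, the median of the 43 was 0.13, and 0 were higher and 1 lower by the unadjusted p alone. Of all genes, 615 passed an unadjusted p with a fold over 2, against 981 without the block. The correction for GC content and length gave 522 such genes. By the unadjusted p alone it gave 2 higher members, where 2.78% of all genes were higher. With the replicate block as well, 258 genes passed with the fold, and 0 members were higher and 0 lower by the p alone. Total counts only gave 0 lower members. The counts of all genes with a fold over 2 are at a stricter threshold than the member counts. They give no share to set beside them, and for the block and the lower members no such share is given.

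The median of the further replication genes was 0.49 under upper-quartile factors, 0.71 with total counts only, 0.30 with at least 10 counts in every sample, 0.23 with the GC and length correction and 0.20 with that and the block. With total counts only, A5-CKO 1 was below both controls for 13 members, while 16 had both A5-CKO libraries over the controls and 2 had both under them. With the GC and length correction 9 had both over the controls, where 16.9% of all genes did.

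The sign of the log2 fold change turned in these cases. With total counts only it was 0.26 for Mcm7, 0.13 for Pold1, 0.27 for Rfc5, 0.26 for Rpa1, 0.29 for Rrm1, 0.11 for Tyms and 0.015 for Chaf1b. Under upper-quartile factors it was 0.040 for Mcm7, 0.048 for Rfc5, 0.038 for Rpa1 and 0.072 for Rrm1. With the GC and length correction it was 0.098 for Mcm7 and 0.089 for Pold1, and with the block as well -0.012 for Mcm6, 0.056 for Mcm7 and 0.089 for Pold1. Without a filter it was -0.012 for Pcna and -0.024 for Rfc3. Lig1 was at -0.028 with limma voom and -0.032 with the block. Rrm1 was at 0.023 under RLE factors and with DESeq2 on the same genes, 0.0072 with its default filtering and 0.018 with at least 10 counts. Apart from the scaling itself, the cause was not tested.

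With each library left out in turn, 0 to 5 members were higher and 0 to 1 lower, their median ran from -0.31 to 0.43, that of the further replication genes from 0.25 to 0.56 and that of the mitosis genes from 0.13 to 1.44, and 738 to 1275 of all genes passed an unadjusted p with a fold over 2. The sign of single members turned in part of these fits. Their log2 fold changes ran -0.026 to 2.03 for Orc1, -0.48 to 0.47 for Cdt1, -0.47 to 0.40 for Mcm2, -0.38 to 1.04 for Mcm3, -0.74 to 0.75 for Mcm5, -0.15 to 0.45 for Mcm6. They ran -0.48 to 0.26 for Mcm7, -0.15 to 0.47 for Gins2, -0.055 to 0.29 for Pola2, -0.16 to 0.43 for Prim2, -0.47 to 1.44 for Pole, -0.24 to 0.39 for Pcna. Further ranges were -0.10 to 0.18 for Rfc3, -0.65 to 0.13 for Rfc4, -0.57 to 0.32 for Rfc5, -0.22 to 0.20 for Rpa1, -0.61 to 0.49 for Lig1, -0.44 to 0.30 for Rrm1. The rest were -0.55 to 1.77 for Rrm2, -0.63 to 0.11 for Tyms, -0.31 to 0.97 for Chaf1a, -0.38 to 1.49 for Uhrf1, -0.50 to 1.47 for Ccne1.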

Other observations

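CCAAT or its reverse complement ATTGG, the letters bound by NF-Y and common in promoters of mitosis genes, was present in the promoter windows of 19 of 25 mitosis and G2/M genes (76.0%), in 23 of 38 DNA replication and G1/S genes (60.5%) and in 41.2% of tested genes with a promoter. The E2F words were present in 1 of the 25 mitosis genes (4.0%), in 12 of 36 further replication genes (33.3%) and in 5 of 10 E2F and RB genes (50.0%). These are counts of letters in the same windows as in the report, given as a description, and no binding was measured.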
